A study of Drosophila melanogaster with 6 samples.

Results

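The vacuolar ATPase subunits and the autophagy genes were examined in S2R+ cells depleted of Hakai, a RING-type E3 ubiquitin ligase that is a subunit of the m6A writer complex. Members were all protein-coding genes whose symbol begins with Vha, or with Atg followed by a digit. This rule gave 53 genes in the annotation, 20 Atg genes and 33 Vha genes, of which 49 (20 Atg and 29 Vha) could be matched to the 17559 genes of the count files. S2R+ is a Drosophila cell line of embryonic origin. Control KD cells had received dsRNA against LacZ, a bacterial gene absent from the fly, and Hakai KD cells dsRNA against Hakai, in both groups 10 μg by the sample labels and 3 treatments within 6 days. Poly(A) RNA was sequenced from 3 libraries per group, which held 16041353 to 17288912 counts each. No other gene is described as altered, and both groups share the cell line, the passage range and the dsRNA schedule.

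Autophagy delivers cytoplasm to the lysosome. The Atg1 kinase complex and a class III phosphatidylinositol 3-kinase complex initiate a membrane sheet, which grows with lipid supplied by Atg9 vesicles and Atg2, and the ubiquitin-like proteins Atg8 and Atg12 are attached to it by a conjugation cascade. The V-ATPase is the proton pump that acidifies lysosomes and other compartments. Its cytosolic V1 sector (subunits A to H) hydrolyses ATP, and its membrane V0 sector (subunits a, c, c'', d and e) carries the protons. In flies most V-ATPase subunits are encoded by several genes, of which some are used in most tissues and others mainly in the testis or other specialised cells.

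Control KD replicate 1 stood apart from the other controls, with a chi-square per degree of freedom over genes of 11.35 and 14.7 against replicates 2 and 3, which differed from each other by 2.25. All Hakai KD pairs lay between 4.88 and 8.09. Hakai transcripts were at 296, 329 and 298 normalized counts (counts scaled by the TMM factors of edgeR to a common library size) in the control KD libraries and at 68.1, 72.6 and 77.8 in the Hakai KD libraries, which leaves 23.7% of the control level. Of 8 markers of the hemocyte-like S2R+ line, 7 were expressed highly enough to be tested, among them srp, a GATA factor of blood cells, and Pxn, an extracellular matrix peroxidase, while the phagocytosis receptor NimC1 was near 0 (at most 6.31 normalized counts). Markers of muscle, fat body and glia summed to at most 7.36, 2.89 and 4.21 normalized counts in any library. Of the muscle list, 2 of 3 genes could be matched to the counts, without wupA. The neuronal list was carried by elav, at 312 to 461 normalized counts, whose exons overlap a non-coding gene on the same strand. The same holds for osk, at 49.4 to 69.4, the only 1 of 3 germ line markers that could be matched. Of the S2R+ markers, 3 rose upon Hakai KD, namely Hml (log2 fold change 0.56), Pxn (0.20) and fz (0.24). Their edgeR adjusted p-values were 0.0043, 0.0037 and 0.0060. This is 3 of 7 tested markers where 7.58% of all genes were called as higher. The other 4, srp (-0.044), Col4a1 (0.061), vkg (0.092) and Sr-CI (0.056), were not called. The summed level of the 8 S2R+ markers was 8809 to 9387 normalized counts in control KD and 9447 to 9893 in Hakai KD. Its part in the results on the members was not tested. In such bulk libraries, a change in the share of cells that express a gene and a change in its RNA per cell cannot be told apart.

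S2R+ cells expressed nearly the whole autophagy list but only a part of the V-ATPase genes. Of the 20 Atg genes, 19 passed the filter on low counts, and the remaining one, Atg8b, had 0 counts in all 6 libraries, which allows up to 3 counts, or 0.189 CPM, in the shallowest library. Of the 29 matched Vha genes, 14 passed. Each of the other 15 held at most 24 counts summed over all 6 libraries, and Vha100-3, Vha16-2, Vha16-3 and VhaM9.7-d held none. The annotation's identifiers for Vha13, Vha26, Vha44 and VhaAC39-1 (subunits G, E, C and d) could not be matched, so these subunits were not analysed here.

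Where several matched genes encode the same V-ATPase subunit, a single gene or a pair accounted for nearly all of its transcripts. Levels were compared as RPKM, counts divided by exon length and effective library size, which allows a comparison between genes of different length. Vha68-2 made up 95.3% ± 0.0916 (SD, n = 3) of the level of the catalytic subunit A in control KD, against 4.65% for Vha68-1 and 0.0526% for Vha68-3. Vha36-1 made up 99.8% of subunit D, a part of the rotor stalk. Vha14-1, Vha16-1 and VhaPPA1-1 accounted for subunit F, the proteolipid subunit c and subunit c'', and no other gene of these subunits exceeded a share of 0.0359% in any library. Subunit a, which forms the path of the protons beside the proteolipid ring, was shared between Vha100-1 and Vha100-2, with 74.7% ± 0.804 and 25.3% ± 0.850 (SD, n = 3) in control KD. Subunit e was shared between VhaM9.7-b (83.5%) and VhaM9.7-c (16.5%). The paralogs of a subunit resemble each other in sequence, and how reads that match several places were counted is not given in the sources used here, so the small shares are uncertain.

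**Figure D1:**
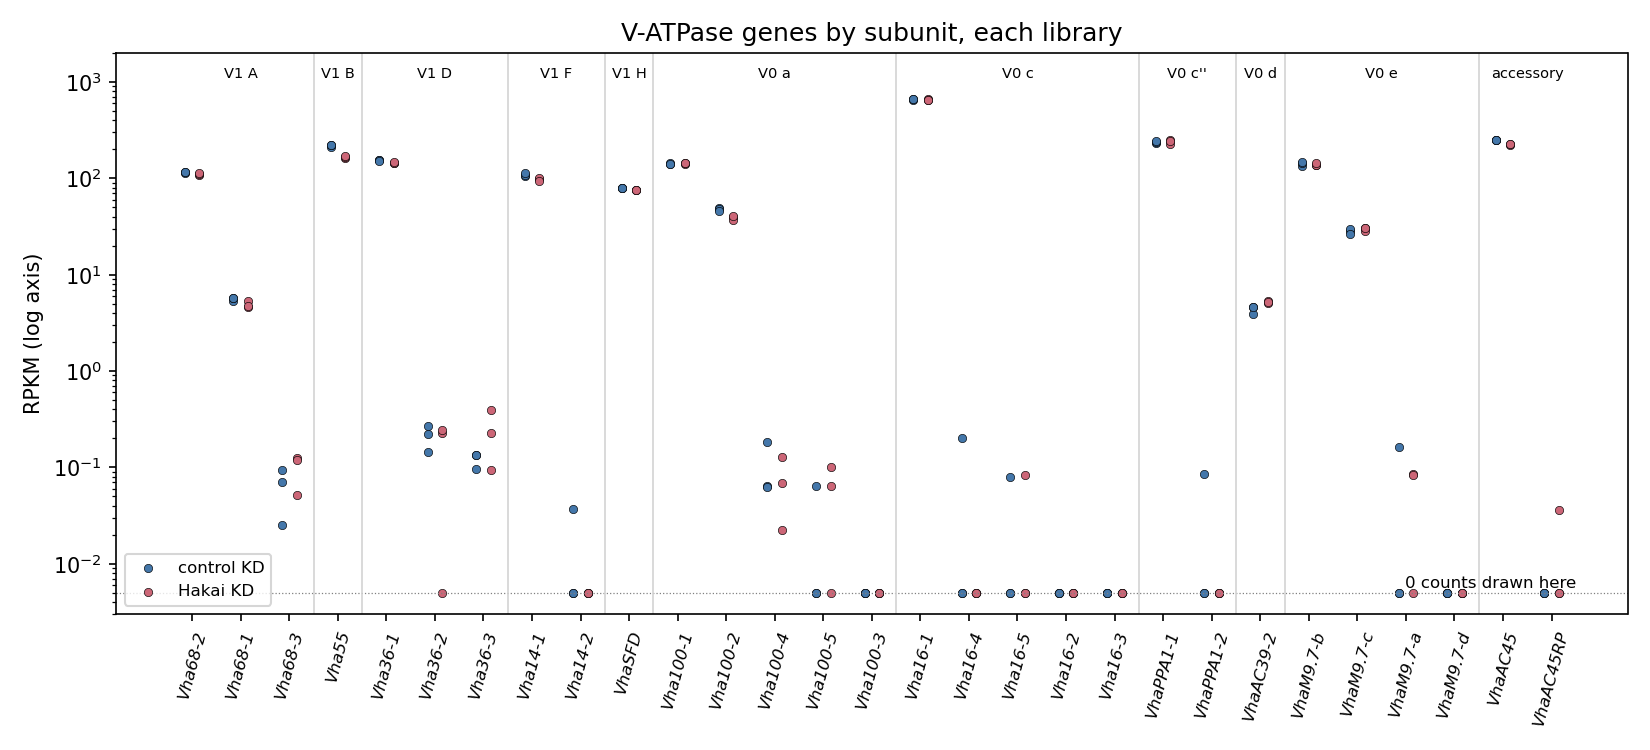
Level of each matched V-ATPase gene in each library, in RPKM on a log axis, grouped by subunit, with the 3 control KD libraries in blue, the 3 Hakai KD libraries in red and libraries with 0 counts drawn on the dotted line. Vha16-1 stands highest at 656 in control KD, and the 15 genes that did not pass the filter have group means of at most 0.237.

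The levels of the expressed V-ATPase genes in control KD ranged from an RPKM of 656 ± 9.65 (SD, n = 3) for Vha16-1, whose product is present in several copies per pump, down to 4.38 ± 0.436 for VhaAC39-2, a gene of subunit d. VhaAC45, an accessory protein of the V0 sector, followed Vha16-1 at an RPKM of 248 ± 1.02. VhaPPA1-1 was at 239 ± 4.92 and Vha55, the nucleotide-binding subunit B, at 219 ± 8.03. The next 6 genes lay between 155 (Vha36-1) and 79.5 (VhaSFD, the regulatory subunit H), above Vha100-2 at 48.0 and VhaM9.7-c at 28.0. Neighbours in this order whose control libraries overlapped were Vha100-1 and VhaM9.7-b (both 142), and Vha68-2 (114.85) and Vha14-1 (109). The order of these 14 genes was the same when levels were divided by the longest annotated transcript.

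The 19 expressed autophagy genes ranged more narrowly on the same per-length scale. Atg8a, the ubiquitin-like protein that coats the autophagosome, stood apart at an RPKM of 165 ± 8.33 (SD, n = 3) in control KD. Atg14, which directs the phosphatidylinositol 3-kinase complex to autophagy, came next at 49.1 ± 0.921. The conjugation factor Atg16 was at 41.5 ± 0.872, and Atg6, Atg9, Atg2, Atg3 and Atg5 lay between 30.1 and 35.9, with libraries that overlapped from each gene to the next. The lowest expressed members were Atg12 at 7.95 ± 1.15 and Atg10, the E2-type enzyme that attaches Atg12 to Atg5, at 5.91 ± 0.347.

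Upon Hakai KD, 5 members were differentially expressed, and all of them were lower. They were the V-ATPase genes Vha55, Vha100-2, Vha14-1 and VhaAC45 and the autophagy gene Atg7. A gene was called where the quasi-likelihood test of edgeR, with Benjamini-Hochberg adjustment over the 7811 genes tested, gave an adjusted p-value below 0.05. Of all genes tested, 15.3% were called, 7.58% as higher and 7.72% as lower. The 5 of 33 tested members, or 15.2%, were close to this background, so the count as a whole does not set the members apart. Of the Vha genes 4 of 14 (28.6%) and of the Atg genes 1 of 19 (5.26%) were called, and this difference between the groups was not tested. The control and Hakai KD libraries did not overlap for 14 of the 33 members, 9 of them lower and 5 higher upon Hakai KD, where 34.9% of all genes had no overlap, 17.9% as lower and 17.0% as higher. With libraries scaled by their size alone, 374 genes of the whole table were higher and 922 lower, against 592 and 603, while the called members included the same 5 and were again all lower.

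In replicates 1 to 3, Vha55 stood at 9729.7, 10403 and 10345 normalized counts with control dsRNA and at 7493, 7762 and 7837 with Hakai dsRNA. The highest Hakai KD library was well under the lowest control, and the distance between the groups exceeded the spread within either. The mean fell from 10159 ± 373 to 7697 ± 181 (SD, n = 3 each), to 75.8% of the control level (log2 fold change -0.40, standard error 0.036, adjusted p = 3.9e-05 from edgeR). The gene lies on the minus strand of 3R from 12623762 to 12627829 in BDGP6.54, free of overlap with exons of other genes.

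Vha100-2 encodes the less abundant subunit a. Its normalized counts were 2663, 2602 and 2479 in control KD and 2127, 1989.5 and 2186 in Hakai KD, without overlap between the groups. It fell to 81.3% of the control level (log2 fold change -0.30, standard error 0.042, adjusted p = 0.00085 from edgeR). Its more abundant paralog Vha100-1 was at 7681, 7871 and 7815.5 normalized counts in control KD and 7798, 8003 and 7994 in Hakai KD. These groups overlapped, with a log2 fold change of 0.026 (95% interval -0.039 to 0.091, adjusted p = 0.60 from edgeR). The share of Vha100-2 in the level of subunit a was accordingly 26.1%, 25.2% and 24.4% in the control KD libraries and 21.8%, 20.2% and 21.8% in the Hakai KD libraries.

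VhaAC45 had 8376, 8315 and 8317.5 normalized counts in control KD and 7532, 7638 and 7564 in Hakai KD. The libraries within each group were close to each other, with SDs of 34.4 and 54.2, and the groups did not overlap. The change was small, with 90.9% of the control level left (log2 fold change -0.14, standard error 0.028, adjusted p = 0.0081 from edgeR). Vha14-1, the gene of subunit F, had 1164, 1185 and 1241 normalized counts in control KD and 1083, 1110 and 1031 in Hakai KD. Its change (log2 fold change -0.15, standard error 0.042, adjusted p = 0.029 from edgeR) no longer passed the threshold in DESeq2 (adjusted p = 0.10), nor in edgeR without control KD replicate 2 or 3 or Hakai KD replicate 1 or 3, where the adjusted p-values were 0.081, 0.090, 0.071 and 0.085. The calls of Vha55, Vha100-2 and VhaAC45 held in all 14 alternatives.

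The other 10 tested Vha genes were not called. All 6 tested V1 genes had a log2 fold change below 0 in the fit with all libraries, where 49.8% of all genes did, and kept that sign in each alternative. The control and Hakai KD libraries of 5 of the 6 did not overlap, Vha68-2 being the exception, all in the direction of lower values that 17.9% of all genes took. Vha36-1 had 2706 to 2764 normalized counts in control KD and 2568 to 2639 in Hakai KD (log2 fold change -0.078, standard error 0.029, adjusted p = 0.098 from edgeR). VhaSFD had 3740.4, 3731.5 and 3789.7 normalized counts in control KD and 3575.5, 3564 and 3539.8 in Hakai KD (-0.077, standard error 0.027, adjusted p = 0.085), and both genes passed the threshold only with libraries scaled by size alone. Vha68-2 had 5190.6 to 5365 normalized counts in control KD and 4947 to 5191.5 in Hakai KD (-0.060, adjusted p = 0.22), and the rarer Vha68-1 had 239.6 to 257 and 206 to 238.5 (-0.19, adjusted p = 0.13).

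Of the 7 tested V0 genes, 2 had a log2 fold change below 0, and a difference between the sectors was not tested. Vha16-1, the most abundant member, had 33136 to 34073 normalized counts in control KD and 33655 to 34534 in Hakai KD. Its log2 fold change of 0.012 had a 95% interval from -0.059 to 0.084, and VhaPPA1-1 had 0.0017 (-0.084 to 0.087), so that a change of 1.2-fold or more lay outside both intervals. With libraries scaled by size alone, the values of Vha16-1, VhaPPA1-1 and Vha100-1 took the other sign. VhaM9.7-b, which had 2750.2 to 2965 normalized counts in control KD and 2772 to 2896 in Hakai KD, had -0.026, and VhaM9.7-c had 0.081. The only Vha gene whose Hakai KD libraries all lay above the control libraries was VhaAC39-2, with 79.7 to 95.3 normalized counts in control KD and 106 to 111 in Hakai KD (log2 fold change 0.27, 95% interval 0.021 to 0.51, adjusted p = 0.13 from edgeR). The median log2 fold change was -0.12 over the 6 tested V1 genes, 0.012 over the 7 tested V0 genes, -0.068 over all 14 and 0.00058 over all genes tested.

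**Figure D2:**
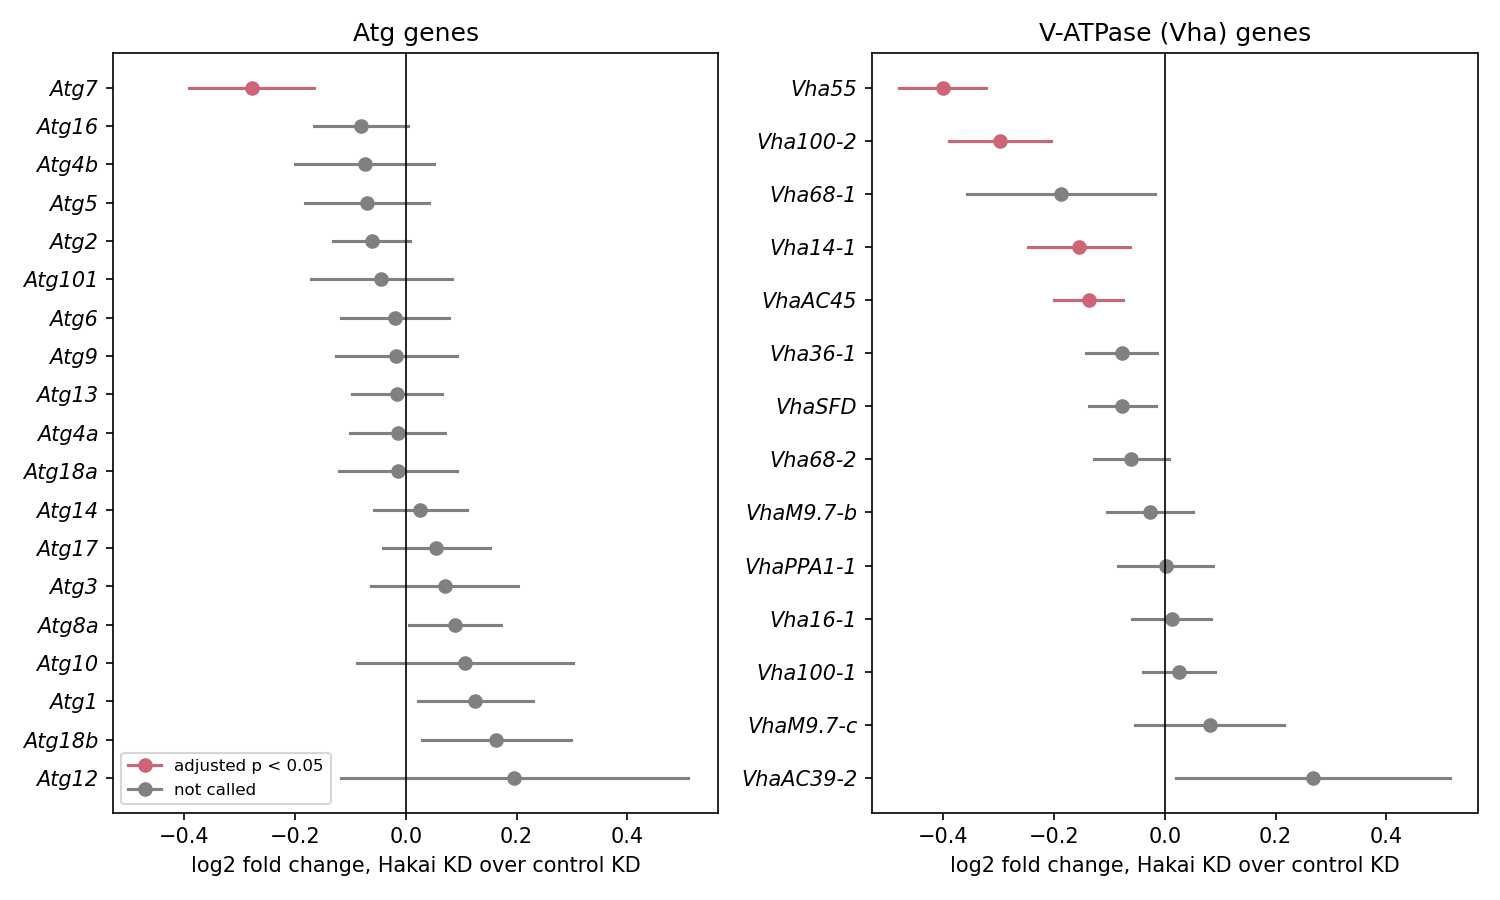
Log2 fold change of Hakai KD over control KD with its 95% interval from edgeR's quasi-likelihood test for the 19 tested Atg genes (left) and the 14 tested Vha genes (right), sorted by value, with called genes in red. Vha55 at -0.40, Vha100-2 at -0.30 and Atg7 at -0.28 lie farthest below 0, and 13 of the 33 genes lie above 0.

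Ratios of counts within a library do not depend on how libraries are scaled. These pairs of genes with related roles were chosen after their values were seen and are given without a test. The ratio of Vha55 (subunit B) to Vha68-2 (subunit A) counts was 1.87, 1.94 and 1.95 in the control KD libraries and 1.51, 1.53 and 1.51 in the Hakai KD libraries. Such ratios of RNA counts are not scaled by gene length and do not give the ratio of the proteins. The ratio of Vha100-2 to Vha100-1 was 0.331 ± 0.0147 in control KD and 0.265 ± 0.0141 in Hakai KD (SD, n = 3 each). That of VhaAC45 to Vha16-1 was 0.247 ± 0.00467 and 0.223 ± 0.00430. In these pairs the groups did not overlap. The ratio of Vha14-1 to Vha36-1 was 0.436 ± 0.0196 and 0.414 ± 0.0200, with libraries that overlapped.

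**Figure D3:**
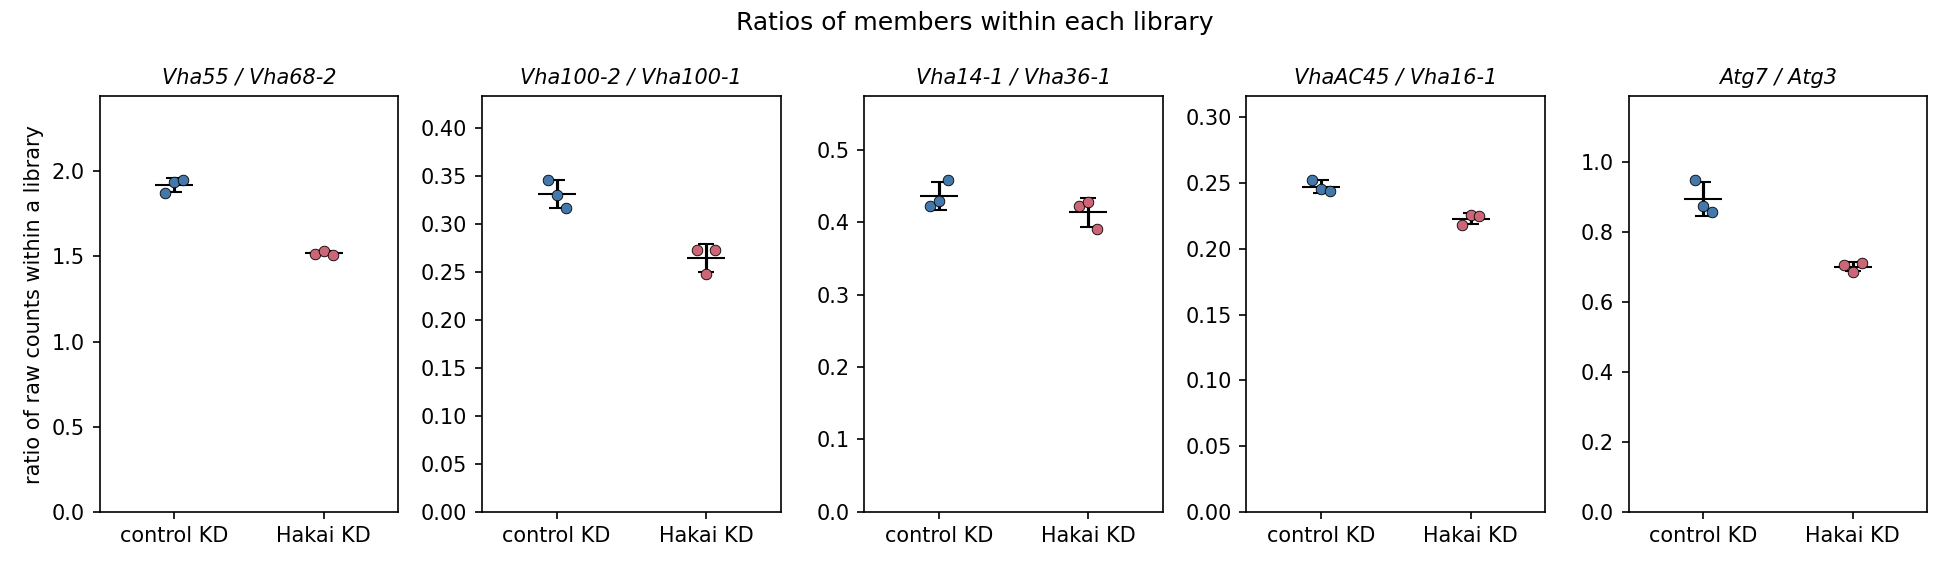
Ratio of the raw counts of pairs of members within each library (points), with the mean and SD of the 3 control KD (blue) and 3 Hakai KD (red) libraries, each axis starting at 0. The ratio of Vha55 to Vha68-2 was 1.92 ± 0.0412 in control KD and 1.52 ± 0.0113 in Hakai KD, and the ratio of Vha14-1 to Vha36-1 is the only one of the 5 whose groups overlap.

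Atg7 was the only autophagy gene called. It encodes the E1-type enzyme that activates both Atg8 and Atg12 at the head of the conjugation cascade. Its normalized counts in replicates 1 to 3 were 541, 558 and 573 with control dsRNA and 446, 452 and 480.5 with Hakai dsRNA, so that the groups were well apart. The mean fell from 557 ± 16.3 to 459.7 ± 18.2 (SD, n = 3 each), or to 82.5% of the control level (log2 fold change -0.28, standard error 0.052, adjusted p = 0.0046 from edgeR). The call held in all 14 alternatives, with an adjusted p-value of at most 0.024. Atg7 lies on the minus strand of 2R from 18620466 to 18625044, likewise free of overlap. The ratio of Atg7 to Atg3 counts, the E1-type and E2-type enzymes of Atg8, was 0.894 ± 0.0490 in control KD and 0.700 ± 0.0127 in Hakai KD (SD, n = 3 each).

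None of the other 8 tested conjugation genes was called. Atg8a, the most abundant of them, had 4392, 4757 and 4832 normalized counts in control KD and 4924, 5022 and 4928 in Hakai KD. All Hakai KD libraries lay above the control libraries, but control KD replicate 1 was the lowest by a distance and the test did not pass (log2 fold change 0.089, standard error 0.038, adjusted p = 0.14 from edgeR). Without that library the log2 fold change was 0.048. Atg16 had 1733, 1805 and 1787 normalized counts in control KD and 1729, 1607 and 1697 in Hakai KD, groups that were separated by a narrow margin (-0.081, adjusted p = 0.19). Atg5, which is joined to Atg12, had 677 to 736 and 642 to 702.5 (-0.070). The E2-type enzymes Atg3 and Atg10 had 0.070 and 0.11, and the Atg8 proteases Atg4a and Atg4b had -0.015 and -0.074. Atg12 was counted too rarely for a precise value, with 51.9 to 68.3 normalized counts in control KD and 68.7 to 73.6 in Hakai KD, a log2 fold change of 0.20 and a 95% interval from -0.12 to 0.51.

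The genes that start the autophagosome were not called either. Among the 4 genes of the Atg1 kinase complex, Atg1 itself had 742, 748 and 676 normalized counts in control KD and 789.9, 793 and 782 in Hakai KD, groups without overlap (log2 fold change 0.13, standard error 0.047, adjusted p = 0.099 from edgeR). Its partners Atg13, Atg17 and Atg101 had -0.016, 0.055 and -0.044, with groups that overlapped. Atg6 and Atg14, subunits of the phosphatidylinositol 3-kinase complex, had -0.019 and 0.026. Of the genes for membrane growth, Atg18b, a protein that binds phosphatidylinositol 3-phosphate, had 359.9, 399 and 397.5 normalized counts in control KD and 452, 421 and 420.5 in Hakai KD, again without overlap (0.16, standard error 0.061, adjusted p = 0.098). Its paralog Atg18a had 1198 to 1324 and 1173 to 1287 (-0.014), and Atg9 had -0.017. The lipid carrier Atg2 had 3371.5 to 3584 and 3305 to 3397 normalized counts (-0.061, adjusted p = 0.23). Of the 19 tested Atg genes, 11 had a value below 0 and 8 above, with a median of -0.015 that turned to 0.0062 when control KD replicate 1 was left out and to 0.023 when Hakai KD replicate 1 was.

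The precision limits what these libraries could show. For 23 of the 28 tested members that were not called, the 95% interval of the fold change lay within 1.2-fold in either direction, and for all 33 tested members it lay within 1.5-fold. The standard errors of the log2 fold changes ranged from 0.027 for VhaSFD to 0.14 for Atg12. Exons of Atg4a and Atg10 share 2098 and 707 nucleotides with genes on the opposite strand (CG4629 and Dgk). The library kit was directional but the strand setting of the counting is not given in the sources used here, so reads of these genes cannot be told apart with certainty. Another 53 nucleotides of Atg10 are shared with CG12822 on the same strand. Smaller overlaps of 11 to 207 nucleotides with genes on the opposite strand touch Atg12, Atg14, Atg4b and Vha100-1.

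The rest of the pathway was read from lists of other autophagy genes, the HOPS tethering complex, lysosomal proteins and regulators of the pump or of lysosomal genes. Of 35 listed genes, 31 were tested, 1 was higher, 2 were lower and 28 were not called, a called share of 9.68% beside 15.3% of all genes. The gene called higher was ref(2)P, the fly homolog of the p62 autophagy receptor, which binds ubiquitylated cargo and Atg8a. Its normalized counts were 4629.6, 4642 and 4704 in control KD and 5075, 5016.5 and 5090.6 in Hakai KD, a clear separation of a small size (log2 fold change 0.12, standard error 0.028, adjusted p = 0.015 from edgeR). The call was lost with libraries scaled by size alone (0.084, adjusted p = 0.080) and without control KD replicate 2 or Hakai KD replicate 3 (adjusted p = 0.064 and 0.055). Its exons share 173 nucleotides with CG10337 on the opposite strand.

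Among 5 tested HOPS genes, dor, the fly Vps18, had 2436, 2519 and 2381 normalized counts in control KD and 2141, 2137 and 2189.9 in Hakai KD. It fell to 88.1% of the control level (log2 fold change -0.18, standard error 0.033, adjusted p = 0.0043 from edgeR), while its partners car, lt, Vps11 and Vps39 were not called and had values between -0.041 and 0.065. Among 9 tested lysosomal genes, Cln7, a membrane transporter of the lysosome whose human counterpart is linked to a childhood storage disease, had 283, 256 and 255 normalized counts in control KD and 152.5, 132 and 119.85 in Hakai KD. This was the largest change among the 31 genes, to 50.9% of the control level (log2 fold change -0.97, standard error 0.096, adjusted p = 7.6e-05 from edgeR). Both calls held in all 14 alternatives. The abundant lysosomal genes did not pass the test, with log2 fold changes of 0.050 for Lamp1, -0.038 for the protease CtsL1, -0.0085 for the protease cathD and 0.067 for the permease spin.

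**Figure D4:**
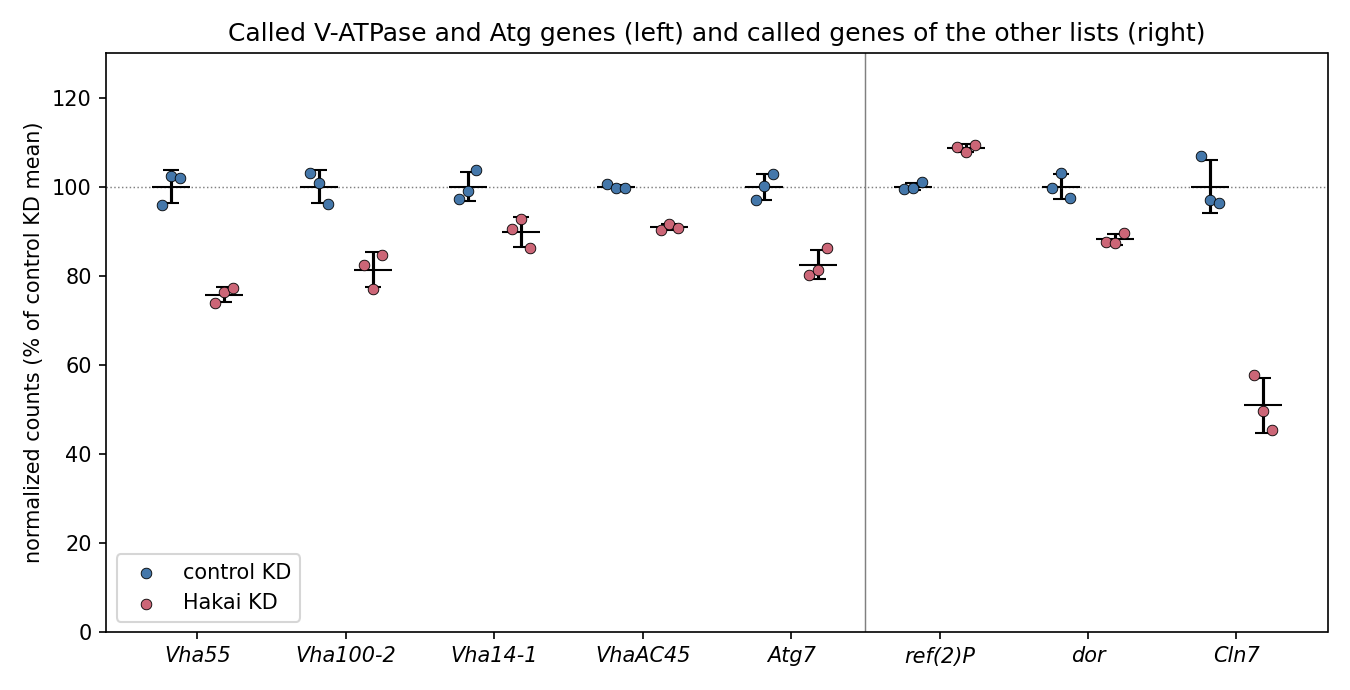
Normalized counts of each library as a percentage of the control KD mean of that gene, for the 5 called members (left of the line) and the 3 called genes of the other lists (right), with the mean and SD of 3 libraries per group and an axis that starts at 0. Vha55 lies at 75.8% and Cln7 at 50.9% of the control level. The groups do not overlap in any of the 8 genes, which are shown because they were called. Of all genes tested, 34.9% had no overlap.

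Mitf, the fly homolog of TFEB and a transcription factor known to raise V-ATPase and lysosomal genes in flies, was not called. Its normalized counts were 823, 927 and 954 in control KD and 834, 838 and 774 in Hakai KD, groups that overlapped because control KD replicate 1 was low (log2 fold change -0.14, standard error 0.058, adjusted p = 0.12 from edgeR). Without that library the value was -0.21 with an edgeR adjusted p of 0.022, and with libraries scaled by size alone it was -0.18 with an adjusted p of 0.042. The other 12 alternatives did not pass the threshold, with values from -0.17 to -0.10 and adjusted p-values of up to 0.31. Pi3K59F, the class III phosphatidylinositol 3-kinase that works with Atg6 and Atg14, had 1110.5, 1076 and 968 normalized counts in control KD and 925, 940.3 and 977 in Hakai KD, with an overlap between the groups (-0.15, standard error 0.052, adjusted p = 0.072). It passed the threshold with libraries scaled by size alone, without the filter on low counts and without control KD replicate 3. Of the 14 tested genes in its list, 9 had a log2 fold change below 0 and 5 above. Among the latter, Rubicon had 408 to 474 normalized counts in control KD and 479 to 515 in Hakai KD. It was not called either (0.18, standard error 0.062, adjusted p = 0.071 from edgeR). The V-ATPase regulators Rbcn-3A and Rbcn-3B had 0.048 and 0.064 and were not called.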

How the data were processed

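RNA-seq was done on poly(A) RNA of 3 control KD and 3 Hakai KD libraries with a directional kit. According to the submitters' processing notes, the authors mapped reads with STAR 2.5.1b to BDGP6 and counted them with featureCounts 1.5.1. The deposited files hold whole, unnormalized counts per gene, and how multimapping reads and strand were treated is not given in the sources used here. Gene names, lengths and positions came from the Ensembl annotation of BDGP6.54 (release 115). The paper states that reads were mapped against Ensembl release 90. Exon lengths used for RPKM and shares may therefore differ from those used in counting. Differential expression was tested in R 4.3.3 with edgeR 4.0.16: filterByExpr (minimum count 10), TMM factors, glmQLFit and glmQLFTest, and Benjamini-Hochberg adjustment over all 7811 genes tested, with a threshold of 0.05. The script was tested on simulated data. It recovered 64.9%, 81.7% and 96.2% of simulated log2 changes of 0.25, 0.5 and 1, with 12 false calls among 170 calls. These changes were given to 77, 71 and 52 of 7811 genes. This is a smaller share than the 15.3% called in the data, so the rates may differ there. Changes smaller in size than 0.25, as for VhaAC45 and Vha14-1, were not simulated. Normalized counts are counts scaled to the mean effective library size, and RPKM values were computed from them with the summed exon length. Samples were grouped by the labels, and the study describes the replicates as biological. The study used DESeq2, which was run here as an alternative (version 1.42.0), with limma-voom (limma 3.58.1), other scalings and filters, a replicate block and the omission of each library. The members and the gene lists were chosen with earlier results of these data known. Full values were given for called members, for the 5 members of each group with the smallest p-values, and for called genes, Mitf, ref(2)P and Pi3K59F of the other lists. No sequences are shown. A floor of 3 counts, equal to 0.173 to 0.189 CPM, was used for genes at 0, and it covers counting error only.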

Additional observations from a re-analysis of the deposited data

How the results depend on the processing

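Of 14 alternatives, 8 used all libraries and 6 left out a library. Leaving out each library in turn gave 708 to 1014 calls among all genes, against 1195, with 1 to 1 Atg genes, 3 to 4 Vha genes and 2 to 5 genes of the other lists. The median log2 fold change of the Atg genes, -0.015 with all libraries, became 0.0062 when control KD replicate 1 was left out and 0.023 when Hakai KD replicate 1 was. DESeq2 called 810 genes and limma-voom left the counts of called members as they were. With libraries scaled by size alone, 6 genes of the other lists were called, 0 higher and 6 lower, against 1 higher and 2 lower, and the median log2 fold change of all genes moved to -0.035. The same scaling gave values of the opposite sign for Atg14 (-0.0089), Vha100-1 (-0.0090), Vha16-1 (-0.023) and VhaPPA1-1 (-0.034), as did testing without the filter on low counts for VhaPPA1-1 (-0.0039). Leaving out a library spanned 0 for Atg18a (-0.045 to 0.027), Atg9 (-0.069 to 0.023), Atg6 (-0.055 to 0.016), Vha16-1 (-8.5e-05 to 0.020), VhaPPA1-1 (-0.033 to 0.042), Atg4a (-0.037 to 0.0026), Atg101 (-0.083 to 0.00079) and Atg14 (-0.0028 to 0.045). None of these genes was called, and the cause was not tested. Same-numbered replicates did not deviate together (correlations of -0.067, -0.033 and -0.074, against -0.010 to 0.079 for the other pairs). No pairing by number was seen, but correlations this weak cannot exclude one. A fit with the replicate block called 1152 genes, of which 1066 were shared with the fit without it, including the same 1 Atg, 4 Vha and 3 other listed genes.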

Other observations

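Some V-ATPase paralogs lie beside each other on the same strand but differed widely in level. Vha68-2 and Vha68-3 on 2L are 178 nucleotides apart, and their control KD levels were 114.85 and 0.0634 RPKM. Vha100-2 and Vha100-4 on 3R are 517 nucleotides apart, with levels of 48.0 and 0.103. VhaPPA1-1 and VhaPPA1-2, also on 3R, are 2052 nucleotides apart with 1 gene between them, and had levels of 239 and 0.0286. Both genes of the pair Vha16-3 and Vha16-2 on 3L, 985 nucleotides apart, were at 0 in all 6 libraries. The 5 called members lay on 2R (Atg7, Vha14-1 and VhaAC45) and 3R (Vha55 and Vha100-2). On 2R, 3 Atg and 4 Vha genes were tested, and on 3R 6 Atg and 5 Vha genes. A preference for these chromosomes was not tested. The autophagy receptor gene ref(2)P lies 35.1 kb from Hakai on 2L with 17 genes between them.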
